A study of Homo sapiens with 6 samples.

Results

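The RNA of 10 genes that turn arachidonic acid into prostaglandins, thromboxane and leukotrienes was followed in KO52, an established acute myeloid leukemia cell line with mutations on both CEBPA alleles. The genes were taken from a list of enzymes and 1 enzyme partner: PLA2G4A, PTGS1, PTGS2, HPGDS, PTGES, TBXAS1, ALOX5, ALOX5AP, LTA4H and LTC4S. They are 10 of the 60612 genes counted, and were chosen with earlier results of these data known. All 3 groups carried a lentiviral, doxycycline-inducible pCW57.1 vector, in a CEBPA double mutant background. EV cells carried the empty vector with GFP, dnCEBP cells a dominant negative peptide that pairs with C/EBP family proteins and keeps them off DNA, and dnFOS cells a dominant negative peptide that does the same to AP-1 family proteins. GFP-positive cells were sorted after doxycycline. There were 2 libraries per group, from total RNA depleted of ribosomal RNA, and the labels do not say whether they came from separate cultures, so p-values measure only the spread between these libraries. Each peptide acts on a whole factor family in a single cell line, and neither the peptides nor any lipid was measured here.

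Eicosanoids are signalling lipids made on demand. A phospholipase frees arachidonic acid from membranes. Cyclooxygenases then turn it into prostaglandin H, from which terminal synthases make prostaglandin D, prostaglandin E or thromboxane, while 5-lipoxygenase starts the leukotriene branch. Mast cells are known for prostaglandin D and cysteinyl leukotrienes, and platelets for thromboxane.

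Total counts ran from 9862994 to 27663179 per library, with the dnFOS libraries the shallowest at 14583615 and 9862994. A count of 3, taken as the floor, equals 0.111 to 0.290 CPM (counts scaled by the TMM-adjusted library size). RN7SL1, an abundant noncoding RNA, took 7.75% to 7.94% of the counts in EV and dnCEBP and 6.12% and 4.31% in dnFOS. The blast markers PTPRC, CD34, CD33, KIT and MPO were detected and FLT3 was at 0 to 4 counts. Of the monocyte markers, CD14 was at 0 to 6 counts and LYZ at 53.2 to 78.5 CPM. CSF1R, FCN1 and VCAN were at 0.0967 to 2.33 CPM. Of the markers listed as non-hematopoietic, EPCAM, KRT18 and PECAM1 were detected in every library, at 27.7 to 37.6, 27.7 to 44.2 and 62.6 to 77.5 CPM. COL1A1 of that list was at 0 to 5 counts.

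The DNA just before the start sites is shown for the 4 genes whose RNA differed between dnFOS and EV, because the peptides act on factors that bind short DNA words. Each stretch is reference sequence from RefSeq (GRCh38.p14), 5′ to 3′ on the gene's strand, beginning 250 bases before a RefSeq start and ending there or where an annotated exon of the gene begins. Capitals mark matches to words for AP-1 (TGANTCA), CRE (TGACGTCA), C/EBP (TTNCNNAA, or TTNNGNAA on the other strand) or a joined AP-1 and C/EBP site (TGANGCAA, or TTGCNTCA).
PTGS1, upstream start (chr9:122370283-122370529, plus strand): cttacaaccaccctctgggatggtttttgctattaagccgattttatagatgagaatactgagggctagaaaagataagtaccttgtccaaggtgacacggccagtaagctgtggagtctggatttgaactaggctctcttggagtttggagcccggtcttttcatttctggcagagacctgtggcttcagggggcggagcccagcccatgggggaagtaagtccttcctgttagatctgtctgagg
PTGS1, start inside the annotated gene (chr9:122375052-122375301, plus strand): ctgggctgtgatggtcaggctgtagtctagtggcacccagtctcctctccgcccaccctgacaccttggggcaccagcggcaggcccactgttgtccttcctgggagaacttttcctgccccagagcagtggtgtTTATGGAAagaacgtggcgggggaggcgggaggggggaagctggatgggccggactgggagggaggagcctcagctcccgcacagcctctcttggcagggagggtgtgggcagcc
PTGS2 (chr1:186680428-186680673, minus strand): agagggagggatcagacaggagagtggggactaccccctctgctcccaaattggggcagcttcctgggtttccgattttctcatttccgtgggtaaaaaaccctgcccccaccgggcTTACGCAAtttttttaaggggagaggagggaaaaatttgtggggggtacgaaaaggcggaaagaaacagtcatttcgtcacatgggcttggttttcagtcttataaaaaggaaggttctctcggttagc
HPGDS (chr4:94342877-94343086, minus strand): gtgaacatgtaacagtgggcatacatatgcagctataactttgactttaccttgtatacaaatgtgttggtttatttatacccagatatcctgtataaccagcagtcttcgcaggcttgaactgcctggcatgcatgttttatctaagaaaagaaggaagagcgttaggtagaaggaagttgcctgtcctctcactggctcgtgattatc
ALOX5AP (chr13:30713235-30713477, plus strand): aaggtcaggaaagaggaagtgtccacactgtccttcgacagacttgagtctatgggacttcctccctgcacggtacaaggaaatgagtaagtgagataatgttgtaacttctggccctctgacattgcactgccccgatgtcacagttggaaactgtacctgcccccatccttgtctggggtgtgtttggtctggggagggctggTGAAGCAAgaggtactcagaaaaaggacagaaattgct
The PTGS2 window held the C/EBP word TTACGCAA at positions -133 to -126. The ALOX5AP window held the joined word TGAAGCAA at -45 to -38. Of the 2 PTGS1 windows, the one at the upstream start held none of the words, and the one before the start inside the gene held TTATGGAA at -115 to -108. No word was found in the HPGDS window. Of 35116 RefSeq windows of 250 bases, 33.2% held the C/EBP word, 2.77% the joined word, 6.57% the AP-1 word and 1.65% the CRE word. Of the other members with a window, TBXAS1 held the AP-1 word TGATTCA at -96 to -90. LTA4H held the C/EBP word TTAAGAAA at -76 to -69. The windows of TBXAS1 and LTA4H lie before a start inside the annotated gene. PLA2G4A, PTGES and LTC4S held none of the words. These are matches of letters, and binding was not measured here.

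Among the listed genes, the KO52 cells held RNA for a prostaglandin D route, for thromboxane synthase and for most of the leukotriene branch. There was next to none for 5-lipoxygenase itself. Per length, HPGDS, the hematopoietic prostaglandin D synthase, stood first in every group, at 93.0 ± 3.08 RPKM in EV (SD, n = 2). PTGS1, the constitutive cyclooxygenase, followed at 16.0 ± 0.303 RPKM. ALOX5AP at 13.1 ± 2.53, LTA4H at 12.8 ± 0.137 and PLA2G4A at 10.9 ± 0.944 RPKM came next, and the ALOX5AP libraries spanned those of LTA4H and overlapped those of PLA2G4A. LTC4S at 5.02 ± 0.522 and TBXAS1 at 4.45 ± 0.485 RPKM did not differ beyond their spread. PTGS2, the inducible cyclooxygenase, was lower, at 2.21 ± 0.236 RPKM in EV. ALOX5 lay at 0.146 ± 0.0159 RPKM. PTGES, which makes prostaglandin E, had 0 counts in all 6 libraries, which allows a level of up to 0.290 CPM in the shallowest. PTGES2 and PTGES3, other prostaglandin E synthases outside this list, were at 4.13 and 47.0 RPKM in EV. In dnCEBP the second place went to ALOX5AP (22.1 ± 2.93 RPKM, against 17.9 ± 0.309 for PTGS1), and in dnFOS to LTA4H (12.4 ± 0.204 RPKM), with ALOX5AP down at 7.01 ± 0.665. RPKM divides by all annotated exon bases of a gene, from 1192 for LTC4S to 7350 for LTA4H. Ranks and ratios between genes depend on these lengths, and the transcripts in use were not measured. By mean CPM in EV, HPGDS (196) was again first, LTA4H (94.1) was level with PTGS1 (92.4), and TBXAS1 (27.6) stood above LTC4S (5.98).

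**Figure D1:**
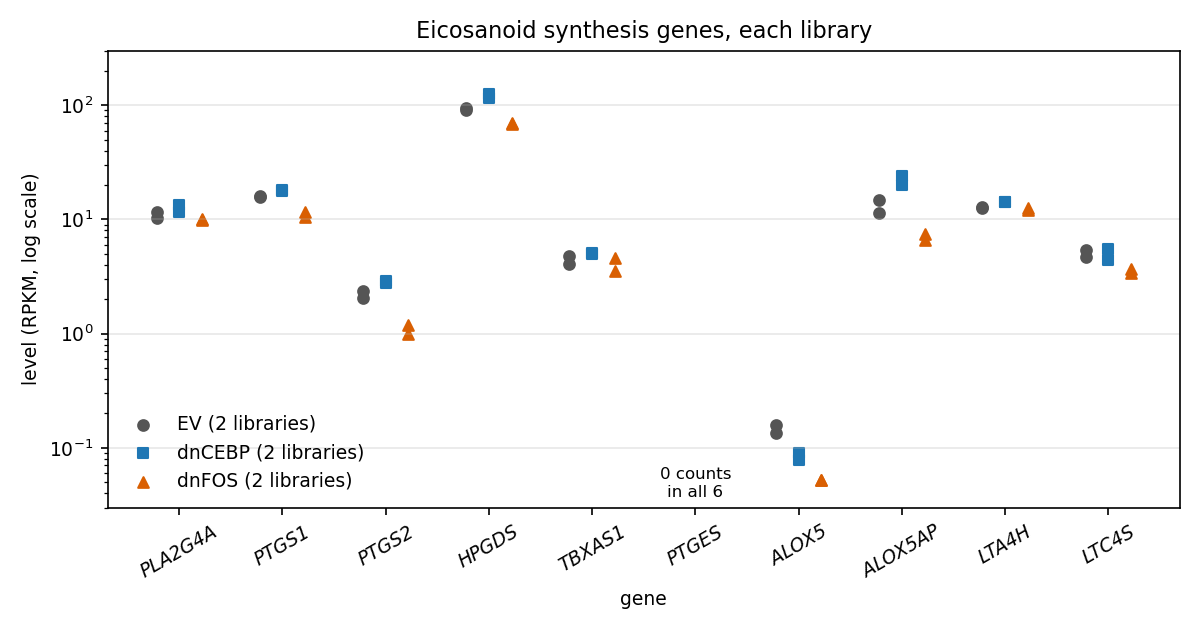
Level of each gene in RPKM (CPM per kilobase of annotated exon, log scale), 1 point per library and 2 libraries per group. HPGDS lies above all other members in each group, ALOX5 stays under 0.2 RPKM, and PTGES had 0 counts in all 6 libraries.

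Of the 10 genes, 9 passed the filter on low counts and were tested. ALOX5 passed only through its EV libraries, so a difference from EV was built into its passing, the other 8 passed in every group, and PTGES did not pass. Compared with EV, dnFOS cells had less RNA of both cyclooxygenases, PTGS1 and PTGS2, of HPGDS and of ALOX5AP. That is 4 of 9 tested genes lower and 0 higher, where 15.0% of all 15395 genes tested were called (7.24% higher and 7.76% lower). The median log2 fold change of the 8 without ALOX5 was -0.46, against 0.0040 for all genes tested. In dnCEBP cells ALOX5AP and HPGDS rose, which is 2 of 9 higher and 0 lower, where 1.07% of all genes were called (0.624% higher and 0.448% lower). The median over the 8 was 0.19, against -0.0022 for all genes. Set directly against dnCEBP, the dnFOS cells had PTGS1, PTGS2, HPGDS and ALOX5AP lower and 0 of the 9 higher, where 14.7% of all genes were called (6.83% higher and 7.84% lower). The genes were chosen with earlier results of these data known, so their counts and medians beside those of all genes are a description. The comparisons share libraries, so each gene's values are given side by side. In bulk RNA, fewer cells of a type and less RNA per cell cannot be told apart.

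**Figure D2:**
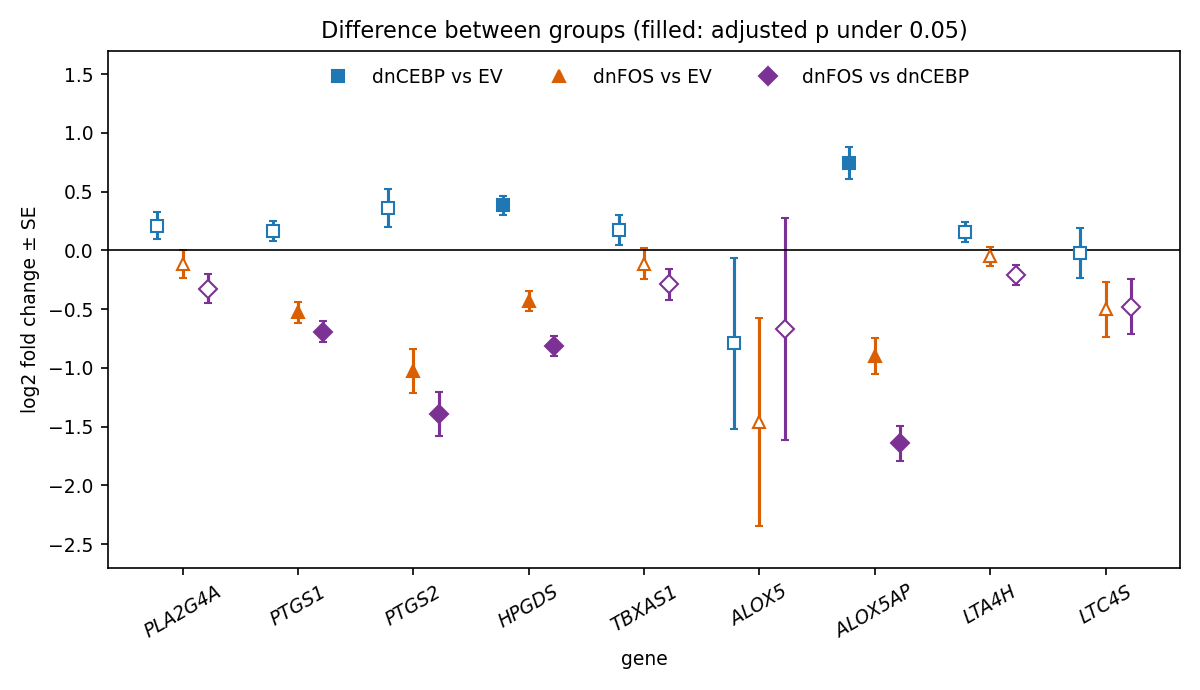
Log2 fold change ± SE (edgeR, 2 libraries per group) of the 9 tested genes in the 3 comparisons, with filled symbols for an adjusted p under 0.05. PTGS1, PTGS2, HPGDS and ALOX5AP are filled below 0 in both comparisons of dnFOS, and HPGDS and ALOX5AP are filled above 0 in dnCEBP against EV.

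PLA2G4A encodes the cytosolic phospholipase A2 that frees arachidonic acid (chr1:186828953-186988981, GRCh38, plus strand). Its RNA was at 33.2 and 29.3 CPM in EV, 33.7 and 38.8 with dnCEBP and 28.7 and 29.1 with dnFOS. Both dnCEBP libraries lay above both EV libraries and both dnFOS libraries below, by margins much smaller than the gap between the EV libraries. The log2 fold change was 0.21 ± 0.12 (SE) in dnCEBP (adjusted p = 0.499) and -0.12 ± 0.12 in dnFOS (adjusted p = 0.584), with a 95% interval of -0.36 to 0.13 for dnFOS. Between dnFOS and dnCEBP it was -0.33 ± 0.12 (adjusted p = 0.0687), a difference that passed the threshold when the trend with GC content and length was removed (adjusted p = 0.00845).

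PTGS1, also called COX-1, is the cyclooxygenase that most cells carry at a steady level (chr9:122370530-122395703, plus strand). It was at 93.7 and 91.2 CPM in EV, 105 and 102 with dnCEBP and 67.3 and 60.8 with dnFOS. The dnFOS libraries were clearly the lowest, and no groups overlapped. The log2 fold change in dnFOS was -0.53 ± 0.09 (adjusted p = 0.000147), a level 0.694 times that of EV. In dnCEBP it was 0.16 ± 0.09 (adjusted p = 0.458), with a 95% interval of -0.010 to 0.34. Against dnCEBP, dnFOS was lower by -0.69 ± 0.09 on the log2 scale (adjusted p = 1.74e-06).

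PTGS2, or COX-2, is the cyclooxygenase switched on by growth factor and inflammatory signals (chr1:186671791-186680427, minus strand). Counts were 256 and 273 in EV, 411 and 304 with dnCEBP and 80 and 65 with dnFOS, or 10.7 and 12.5, 15.2 and 14.7, and 5.21 and 6.28 CPM. Again dnFOS was lowest and dnCEBP highest, with no overlap between groups. In dnFOS the RNA fell to 0.490 times the EV level, a log2 fold change of -1.03 ± 0.19 (adjusted p = 0.000379). In dnCEBP the value was 0.36 ± 0.16 and did not pass the threshold (adjusted p = 0.359), although the unadjusted 95% interval ran from 0.035 to 0.69. The direct difference of dnFOS from dnCEBP was -1.39 ± 0.19 (adjusted p = 3.3e-06). PLA2G4A, its neighbour on chromosome 1 with 148525 bases between the 2 genes, was not called in any of the 3 comparisons. Per length, PTGS1 stood 6.64 and 7.94 times above PTGS2 in the EV libraries, 6.27 and 6.35 times with dnCEBP and 8.80 and 11.8 times with dnFOS.

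HPGDS makes prostaglandin D from prostaglandin H in mast cells and other blood cells (chr4:94298535-94342876, minus strand). It was the most deeply counted member, with 1521 to 6613 counts per library. Levels were 201 and 192 CPM in EV, 245 and 267 with dnCEBP and 145 and 147 with dnFOS. The groups stood in 3 separate steps, and the gap from EV to each peptide group was wider than the spread within any group. HPGDS rose by 0.38 ± 0.08 on the log2 scale in dnCEBP (1.30-fold, adjusted p = 0.0153) and fell by 0.43 ± 0.08 in dnFOS (0.743 times EV, adjusted p = 0.000856). Between dnFOS and dnCEBP the log2 fold change was -0.81 ± 0.09 (adjusted p = 4.9e-08). The rise in dnCEBP depended on which libraries were kept. It held without dnCEBP replicate 1 (0.45, adjusted p = 0.0171), but the adjusted p was 0.338 without dnCEBP replicate 2, 0.0928 without EV replicate 1 and 0.221 without EV replicate 2, at log2 fold changes of 0.32, 0.42 and 0.34.

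**Figure D3:**
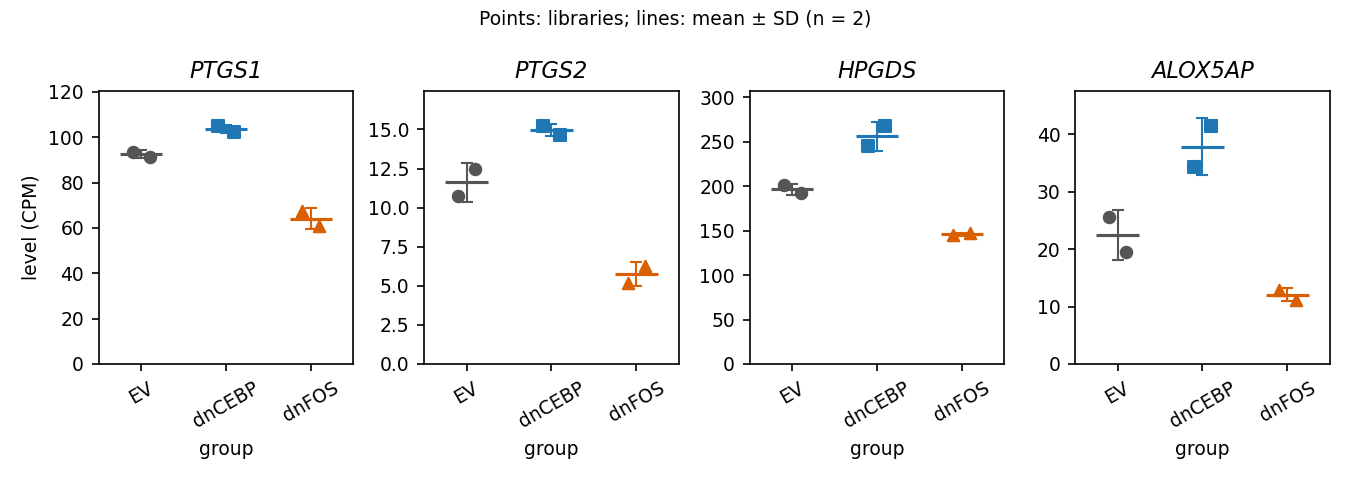
Level in CPM (linear axes from 0) of the 4 genes called in dnFOS against EV, with 1 point per library, a line at the mean and bars of 1 SD (n = 2). In each panel both dnFOS libraries lie below both EV libraries and both dnCEBP libraries above, as for ALOX5AP at 11.2 and 12.8, 19.5 and 25.6, and 34.3 and 41.4 CPM.

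Of the other terminal synthases, PTGES was at 0 and TBXAS1 was not called. TBXAS1 encodes thromboxane synthase, best known from platelets (chr7:139777051-140020325, plus strand). It was at 29.7 and 25.5 CPM in EV, 31.8 and 30.6 with dnCEBP and 28.7 and 21.9 with dnFOS. The dnFOS libraries overlapped those of EV. Log2 fold changes were 0.18 ± 0.13 in dnCEBP (adjusted p = 0.623) and -0.11 ± 0.13 in dnFOS (adjusted p = 0.639), the latter changing sign to 0.0572 without dnFOS replicate 2. The direct difference of dnFOS from dnCEBP was -0.29 ± 0.13 (adjusted p = 0.152), and it passed the threshold only without dnFOS replicate 1 (-0.51, adjusted p = 0.0246). HPGDS stood 19.9 and 22.1 times above TBXAS1 per length in EV, 22.6 and 25.7 times with dnCEBP and 14.8 and 19.7 times with dnFOS.

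In the leukotriene branch the single called gene was ALOX5AP, which encodes FLAP, the membrane protein that hands arachidonic acid to 5-lipoxygenase (chr13:30713478-30764426, plus strand). It was at 25.6 and 19.5 CPM in EV, 34.3 and 41.4 with dnCEBP and 12.8 and 11.2 with dnFOS. No groups overlapped, and the pairs of libraries in EV and dnCEBP lay wider apart than the dnFOS pair. ALOX5AP rose 1.68-fold in dnCEBP, a log2 fold change of 0.74 ± 0.14 (adjusted p = 0.00308). In dnFOS it fell to 0.536 times the EV level, at -0.90 ± 0.15 (adjusted p = 0.000181). Between dnFOS and dnCEBP the log2 fold change was -1.64 ± 0.15, or 0.320 times (adjusted p = 4.89e-09), the largest difference of any called member in the 3 comparisons. The dnCEBP call did not hold without dnCEBP replicate 2 (0.60, adjusted p = 0.163) or without EV replicate 2 (0.56, adjusted p = 0.135), and it held without dnCEBP replicate 1 or EV replicate 1.

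RNA of the enzyme that FLAP serves was barely present. ALOX5, or 5-lipoxygenase (chr10:45374176-45446119, plus strand), had 14 and 11 counts in EV, 9 and 6 with dnCEBP and 3 and 2 with dnFOS. Both dnFOS libraries were at or under the floor of 3 counts. The pooled level in dnFOS was 0.355 times that in EV (95% interval 0.106 to 0.945, counting error only), and in dnCEBP 0.574 times (0.281 to 1.13). The edgeR test did not call it (adjusted p = 0.298 in dnFOS and 0.730 in dnCEBP), and at this depth smaller differences were not detectable. Because ALOX5 passed the filter through EV alone, these ratios to EV are a description.

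LTA4H, which makes leukotriene B (chr12:96000828-96043520, minus strand), differed little between groups. It was at 94.8 and 93.3 CPM in EV, 104 and 105 with dnCEBP and 89.7 and 91.8 with dnFOS. The groups did not overlap but lay close together, with log2 fold changes of 0.16 ± 0.08 in dnCEBP (adjusted p = 0.468) and -0.052 ± 0.084 in dnFOS (adjusted p = 0.741, 95% interval -0.22 to 0.12). The dnFOS value turned to 0.0465 when libraries were scaled by their totals alone. The dnFOS to dnCEBP difference of -0.21 ± 0.08 missed the threshold (adjusted p = 0.0975) and passed it once the trend with GC content and length was removed (adjusted p = 0.00377). Antisense genes that overlap its exons had 0 to 9 counts.

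LTC4S joins glutathione to leukotriene A to make leukotriene C (chr5:179793980-179796647, plus strand). It had 153 and 121 counts in EV, 176 and 108 with dnCEBP and 67 and 42 with dnFOS, or 6.42 and 5.54, 6.51 and 5.21, and 4.36 and 4.06 CPM. The dnCEBP libraries spanned those of EV, while both dnFOS libraries lay below them. The log2 fold change in dnFOS was -0.50 ± 0.23 (adjusted p = 0.157, 95% interval -0.98 to -0.022), close to that of PTGS1 but with a wider error. In dnCEBP it was -0.023 ± 0.21 (adjusted p = 0.981). Per length, LTA4H stood 2.39 and 2.73 times above LTC4S in EV, 2.60 and 3.28 times with dnCEBP and 3.34 and 3.67 times with dnFOS.

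Beyond these 10, a list of 46 further eicosanoid genes was taken, also with earlier results of these data known. These were other phospholipases, synthases and lipoxygenases, inactivating enzymes, transporters and receptors. Of them 31 were tested, and 11 had 0 counts in all libraries, among them the lipoxygenases ALOX12, ALOX15 and ALOX15B, the prostacyclin synthase PTGIS and the prostaglandin D receptor PTGDR. PTGDS, the other prostaglandin D synthase, had 1 count in all, so HPGDS was the one of the pair with a measured level. The other receptor for prostaglandin D, PTGDR2, was at 19.7 and 15.3 CPM in EV, 22.9 and 20.1 with dnCEBP and 14.5 and 18.0 with dnFOS, and was not called.

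Of the 31, dnCEBP had 1 higher and 0 lower (3.23% called, beside 1.07% of all genes, with a median log2 fold change of 0.067 beside -0.0022). It was ABCC4, a pump that exports prostaglandins, at 142 and 137 CPM in EV and 179 and 195 in dnCEBP (0.42 ± 0.08, adjusted p = 0.00678), and the call was lost without dnCEBP replicate 2 (adjusted p = 0.206), EV replicate 1 (0.0531) or EV replicate 2 (0.142). In dnFOS 5 were lower and 2 higher (22.6% called, beside 15.0% of all genes, with a median of -0.072 beside 0.0040). Among the 5, PTGIR had 6 and 8 counts in dnFOS and passed the filter only through EV and dnCEBP. A lower level in dnFOS was therefore built into its passing. ABCC4 fell to 96.7 and 103 CPM (-0.48 ± 0.09, adjusted p = 0.000273), so it lay above EV in dnCEBP and below it in dnFOS, as HPGDS and ALOX5AP did. PTGER4, a receptor for prostaglandin E, fell from 30.9 and 29.4 CPM in EV to 17.8 and 19.5 in dnFOS (-0.70 ± 0.13, adjusted p = 0.000419). The prostacyclin receptor PTGIR also fell (-1.49 ± 0.51, adjusted p = 0.0463), from 1.80 and 1.33 to 0.391 and 0.773 CPM, but its call was lost in 8 of 14 alternatives, with an adjusted p of 0.322 without dnFOS replicate 1, 0.0618 without dnFOS replicate 2 and 0.240 without EV replicate 1.

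GGT5, which trims leukotriene C, was lower in dnFOS (-0.62 ± 0.20, adjusted p = 0.0361), but its call was lost in 9 of 14 alternatives, among them each removal of a library (adjusted p = 0.0542 to 0.225). The call of the related GGT1 (-1.01 ± 0.26, adjusted p = 0.00694) is uncertain because it has near-identical copies and shares 306 exonic bases with SNRPD3, and it was lost without dnFOS replicate 2 (adjusted p = 0.0788) or EV replicate 1 (0.0811). Higher in dnFOS were HPGD, the enzyme that inactivates prostaglandins, and CYSLTR1, a receptor for cysteinyl leukotrienes. HPGD was at 8.14 and 8.93 CPM in EV, 11.1 and 12.5 with dnCEBP and 12.3 and 15.5 with dnFOS (0.69 ± 0.18, adjusted p = 0.00732 for dnFOS), and its call was lost without dnFOS replicate 2 (adjusted p = 0.142) or EV replicate 1 (0.0738). CYSLTR1 went from 32.9 and 31.2 CPM in EV to 42.5 and 46.3 in dnFOS (0.47 ± 0.11, adjusted p = 0.00481), with a lost call without dnFOS replicate 2 (adjusted p = 0.0517) or EV replicate 2 (0.0653). Directly against dnCEBP, 6 of the 31 were lower in dnFOS and 2 higher (25.8% called, beside 14.7% of all genes). The lower ones were ABCC4, PTGER4, PTGIR, GGT1, PLA2G4C, a phospholipase at 0.580 to 2.66 CPM over the 6 libraries, and AKR1C3, which reduces prostaglandins D and H (-0.53 ± 0.12, adjusted p = 0.00188). The higher ones were CYSLTR1 and PTGES3, a prostaglandin E synthase and chaperone partner (0.26 ± 0.09, adjusted p = 0.0449), whose call was lost in 9 of 14 alternatives. Without dnCEBP replicate 1, the calls of PLA2G4C, PTGIR, CYSLTR1 and PTGES3 were lost (adjusted p = 0.152, 0.132, 0.111 and 0.0756).

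**Figure D4:**
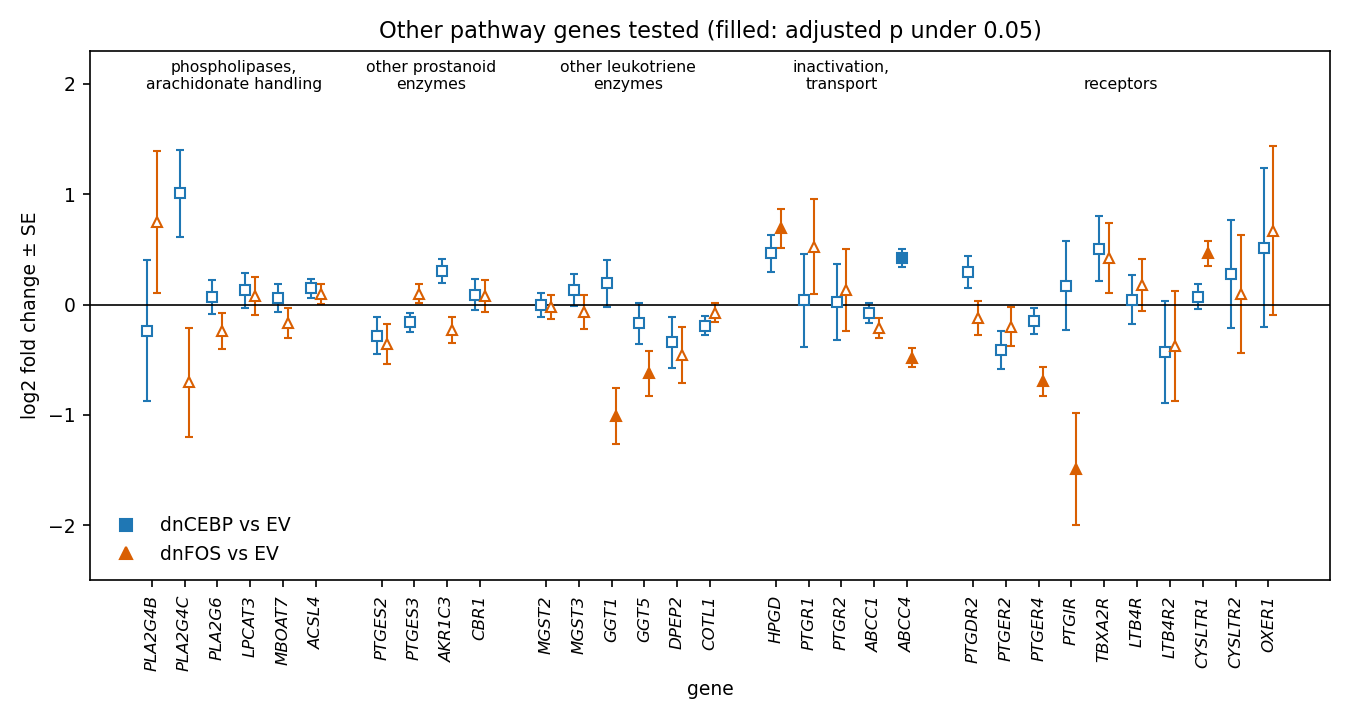
Log2 fold change ± SE (edgeR, 2 libraries per group) of the 31 other pathway genes tested, by role, with filled symbols for an adjusted p under 0.05. ABCC4 is the single gene filled in dnCEBP, and in dnFOS 5 genes are filled below 0 and 2, HPGD and CYSLTR1, above.

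Genes of mast cells, basophils and eosinophils moved in the same libraries. The summed level of 9 such markers was 543 to 555 CPM in EV, 630 to 647 in dnCEBP and 276 to 301 in dnFOS, with none of the 9 at 0 throughout. HDC, the histamine-forming enzyme, made up most of the sum in EV and dnCEBP, with a mean of 336 ± 16.6 CPM under EV, 396 ± 4.33 with dnCEBP and 147 ± 16.6 with dnFOS (SD, n = 2). In dnFOS 5 of 8 tested were called lower and 0 higher, where 15.0% of all genes tested were called (7.76% lower). Among the 5 were HDC (-1.19, adjusted p = 1.26e-10) and the mast cell protease CPA3 (-0.995, adjusted p = 2.88e-08). TPSAB1, another of the 5, had 1 count in each dnFOS library and 18 to 28 in the other libraries. It passed the filter only through EV and dnCEBP, so a lower level in dnFOS was built into its passing. FCER1A and MS4A2, chains of the IgE receptor, were at 85.9 to 106 and 6.59 to 11.1 CPM over the 6 libraries and were not called, and MS4A2 had a positive value in dnFOS (0.54, adjusted p = 0.0665). In dnCEBP, where 3 of the 8 had positive and 5 negative values (median -0.085), CPA3 rose (0.63, adjusted p = 0.000163) and CLC, of eosinophils and basophils, fell (-1.16, adjusted p = 0.00183). The sum of 6 megakaryocyte and platelet markers was 184 to 195 CPM in EV, 203 to 239 in dnCEBP and 103 to 113 in dnFOS, most of it ITGA2B, with GP1BB at 0. Of the 3 tested, ITGA2B and TUBB1 had negative values in dnFOS and PPBP a positive one (0.73 ± 0.38, adjusted p = 0.202). The 5 monocyte markers summed to 80.1 to 83.8, 67.9 to 76.6 and 54.8 to 63.3 CPM in EV, dnCEBP and dnFOS, most of it LYZ. Of 5 blast markers tested, 3 had positive and 2 negative values in dnCEBP, and all 5 had negative values in dnFOS. MPO fell in dnCEBP (-1.89, adjusted p = 5.03e-13) and in dnFOS (-0.56, adjusted p = 0.000273). PTPRC fell in dnFOS (-0.33, adjusted p = 0.00663) and had a positive value in dnCEBP that was not called (0.30, adjusted p = 0.0814). KRT18 also fell in dnFOS (-0.43, adjusted p = 0.0157). The part of any of these, of depth or of RN7SL1 in the results for the eicosanoid genes was not tested.

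The genes whose log2 level followed each of the 4 called members most closely over the 6 libraries were looked up among 12753 genes, as a description in which all points share their libraries and depths. The highest of so many values over 6 points lie near 1 by their selection, and ties between the genes were not tested. For HPGDS they were SNHG15, ABCC4 and PTPRC (Pearson's r = 0.999, 0.999 and 0.998). For ALOX5AP they were ARHGDIB, VIM and NRIP3 (r = 0.998, 0.996 and 0.996). PTGS1 was followed by USP28, S100A6 and CPPED1 (r = 0.996, 0.996 and 0.995), and PTGS2 by PTPRB, RBM39 and VEPH1 (r = 0.998, 0.997 and 0.995).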

How the data were processed

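RNA was measured in 6 KO52 libraries, 2 per group, grouped by the sample titles. What was deposited are whole-number raw counts for each gene, which the authors made with Trimmomatic, HISAT2 and featureCounts (Subread) on hg38 per the submitters' processing notes. Tool versions, the annotation, the use of strand and the treatment of reads matching several genes are not given in the sources used here. Coordinates and exon lengths came from GENCODE release 29 (GRCh38), in which 58394 of the 60612 IDs were found. Promoter windows were found for 9 of the 10 members.

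The analysis used R 4.3.3 with edgeR 4.0.16, whose filterByExpr (minimum count 10) left 15395 of the 27870 with at least 1 count. TMM factors ran from 0.956 to 1.05. A robust quasi-likelihood fit of group means took in the 6 libraries, with 3 residual degrees of freedom. It drew each gene's spread toward that of the other genes, so p-values and intervals rest in part on spread borrowed from them. The 3 contrasts were tested two-sided, Benjamini-Hochberg adjustment covered every tested gene, and the threshold for a call was an adjusted p of 0.05. Standard errors came from the fitted fold change and its F statistic. Alternatives used DESeq2 1.42.0, limma-voom 3.58.1 and mgcv 1.9.3 (trend with GC content and length). The procedure was tested on simulated data. The text names every member, each called gene of the other pathway list and the 3 genes most like each called member. A few others (PTGDS, PTGES2, PTGDR, PTGDR2, the lipoxygenases, PTGIS and the cell markers named) were chosen after their values were seen. The members and lists were chosen with earlier results of these data known. Libraries of a group differed beyond sampling noise, so each counted as 1 sample. Libraries of dnCEBP and EV were nearly as alike across the groups as within them. Pearson's r of log2 CPM was 0.981 to 0.986 between them, 0.985 within EV and 0.987 within dnCEBP.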

Additional observations from a re-analysis of the deposited data

How the results depend on the processing

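Against a test for a change over 1.5-fold, synthesis genes called fell to 0 in dnCEBP against EV, 0 in dnFOS against EV and 2 in dnFOS against dnCEBP, and other pathway genes to 0, 0 and 1. Without 1 library at a time, synthesis genes called in dnCEBP against EV ran from 0 (without dnCEBP replicate 2 or EV replicate 2) to 2, stayed at 4 in dnFOS against EV, and ran from 4 to 5 in dnFOS against dnCEBP (TBXAS1 was added without dnFOS replicate 1). Other pathway genes ran from 0 to 1 in dnCEBP against EV, from 2 (without dnFOS replicate 2, and 3 without EV replicate 1) to 5 in dnFOS against EV, and from 4 (without dnCEBP replicate 1) to 7 in dnFOS against dnCEBP. A lone library left in a group is assumed to vary like the others. Under all alternatives but the 1.5-fold test, adjusted p in dnFOS against EV ran up to 0.00839 for ALOX5AP, 0.0259 for HPGDS, 0.00392 for PTGS1 and 0.00813 for PTGS2.

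Values that changed sign were all of uncalled genes: LTA4H in dnFOS against EV (0.0465 with library totals), LTC4S in dnCEBP against EV (0.272 with the GC and length trend removed, -0.199 to 0.122 without 1 library) and TBXAS1 in dnFOS against EV (-0.33 to 0.0572 without 1 library). The causes were not tested. Over all genes, calls in dnCEBP against EV ran from 6 (1.5-fold test) to 488, with 33 without dnCEBP replicate 2, 53 without EV replicate 2, 81 without EV replicate 1, 255 with no filter, 257 without dnCEBP replicate 1, 269 with the trend removed and 297 with only the groups compared, against 165. In dnFOS against EV 67 were called by the 1.5-fold test, 972 without dnFOS replicate 2 and 1059 without EV replicate 1, against 2309. In dnFOS against dnCEBP 153 were called by the 1.5-fold test, 1349 without dnCEBP replicate 1 and 1182 without dnFOS replicate 2, against 2259. Library totals moved the median of all genes by 0.0981 in dnFOS against EV, where 1905 genes were then called higher and 676 lower against 1115 and 1194, and by 0.121 in dnFOS against dnCEBP, where 2101 were higher and 714 lower against 1052 and 1207.

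Libraries with the same replicate number deviated together only weakly (r = 0.0174 to 0.0879 over all genes tested, and 0.0785 to 0.108 over those of at least 1 CPM, with 1 of 3 pairings over 0.1), so the numbers were not taken as pairs. With the replicate block 488, 3172 and 3013 genes were called in dnCEBP against EV, dnFOS against EV and dnFOS against dnCEBP, and the synthesis genes called against EV stayed at 2 and 4. LTA4H and PLA2G4A then passed in dnFOS against dnCEBP (adjusted p = 0.0403 and 0.0349). Depth limits ALOX5 and PTGES, whose counts lie near or at 0.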

Other observations

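RNA levels of HPGDS were also set against those of HPGD. Per length, HPGDS stood 64.7 and 56.3 times above HPGD, which encodes the inactivating enzyme, in EV, 57.5 and 56.2 times with dnCEBP and 30.8 and 24.9 times with dnFOS. Both dnFOS ratios lay below those of the other 4 libraries. The ratio of HPGDS to PTGS1, which supplies its substrate, was 5.88 and 5.77 in EV, 6.40 and 7.17 with dnCEBP and 5.90 and 6.63 with dnFOS. These ratios of RNA levels were not tested, and they were set up after the values were seen.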
